A study of Mus musculus with 6 samples.

Results

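The antioxidant enzymes described here are the protein-coding genes of the glutathione transferase, microsomal glutathione transferase, glutathione peroxidase, peroxiredoxin and thioredoxin reductase families. Added to these by name are Txn1, Txn2, Gclc, Gclm, Gss, Gsr, Cat, Sod1, Sod2, Sod3, Nqo1, Srxn1, Nfe2l2 and Keap1. The choice used gene names and biotype only, and it gave 57 of the 41325 gene rows in the files. Of these, 48 had enough reads to be tested and 9 did not. Bulk RNA-seq was done on 6 libraries of female ICR mice, an outbred stock bought at 10 weeks of age. The labels name no engineered allele. All mice ate a commercial chow and were injected with 5-fluorouracil (5-FU), a drug that blocks DNA precursor synthesis, at 20 mg/kg per day, 2 times a week for 3 weeks. The elemental diet group (3 libraries) was also given by mouth Elental, an amino-acid-based liquid formula, 1.6 kcal in 0.8 mL per day, 2 times a day and 5 times a week for 3 weeks, and the saline group (3 libraries) the same volume of saline. Mice without 5-FU are not analysed here, so elemental diet against saline under 5-FU is the comparison throughout. The labels give 3 mice per group without tying each library to a mouse, and p-values therefore reflect only how these libraries scatter, which may be technical.

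Glutathione is a small thiol peptide that donates electrons to enzymes which remove peroxides and electrophiles. Glutamate-cysteine ligase (Gclc and Gclm) and glutathione synthetase (Gss) make it, glutathione reductase (Gsr) restores it with NADPH, and glutathione peroxidases and transferases spend it. Superoxide dismutases turn superoxide into hydrogen peroxide, which catalase, glutathione peroxidases and peroxiredoxins then remove, and thioredoxin with its reductases recharges the peroxiredoxins. The transcription factor NRF2 (Nfe2l2), held down by KEAP1, drives many of these genes through antioxidant response elements. Red cells carry much of this machinery, because they hold hemoglobin and oxygen and cannot replace damaged protein once mature.

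Reads assigned to genes came to between 29053287 and 33073125 per library. A count of 0 in a library could hide a level of up to the equivalent of 3 reads (counting error only). By library totals that is 0.0907 to 0.103 CPM, without the scaling factors that the other CPM values carry. The tissue label is salivary gland, but Smgc, Pip, Bpifa1, Prb1 and Dcpp1 of 12 acinar genes had 0 reads, and the summed level of that list was 5.47 to 6.67 CPM under elemental diet and 13.3 to 15.2 under saline. Of 11 duct genes, Klk1b3, Klk1b4 and Klk1b22 had 0 reads, and the summed level was 237 to 246 CPM under elemental diet and 55.9 to 61.6 under saline. Most of it was Kcnn4, a potassium channel that blood cells also carry, at 235 ± 5.82 and 40.6 ± 2.59 CPM (SD, n = 3). The summed level of 8 epithelium genes was 5.63 to 11.7 CPM under elemental diet and 14.5 to 18.5 under saline. Blood-forming and lymphoid cell markers were instead abundant, and differed between the groups. The summed level of 13 erythroid genes, none at 0, was 45042 to 46241 CPM under elemental diet and 2895 to 4592 under saline, and that of 12 proliferation genes, none at 0, 6092 to 7008 and 296 to 312. For 8 B cell genes, none at 0, it was 785 to 837 and 5743 to 5938, and for 8 T cell genes 61.8 to 68.2 and 420 to 512. For 12 monocyte and macrophage genes, none at 0, it was 1047 to 1249 and 3071 to 3455. The 10 neutrophil genes, none at 0, summed to 247 to 286 and 19.3 to 21.4, and the 7 platelet genes, none at 0, to 3961 to 5004 and 1644 to 1767. In each of these lists the libraries of the groups did not overlap, and the part of these cells in the results below was not tested. Bulk RNA cannot tell fewer cells of a type from less RNA per cell. The libraries numbered 1 stood apart in both groups by fat cell transcripts: Adipoq, the fat cell hormone adiponectin, stood at 8.20 CPM in elemental diet library 1 and 5.43 in saline library 1, and at 0.156 CPM or less in the other 4.

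More of the antioxidant genes were higher than lower under elemental diet. Of the 48 tested, 30 were higher and 13 lower at an adjusted p under 0.05 in edgeR's quasi-likelihood test, and 5 did not pass. That is a share called of 89.6%, against 78.1% of all 18303 genes tested, with 38.0% of them higher and 40.2% lower. The median log2 fold change was 0.68 for the members and -0.08 for all genes tested. More than 2-fold higher were 20 members (19.1% of all genes) and more than 2-fold lower 4 (23.7% of all genes). Against a fold change of 1.5 in place of 1, 24 were higher and 8 lower, where 50.8% of all genes passed. The libraries of the groups did not overlap in 44 of the 48, against 81.0% of all genes. Without both libraries numbered 1, 30 were higher and 14 lower, the same genes with Gstt3 added.

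**Figure D1:**
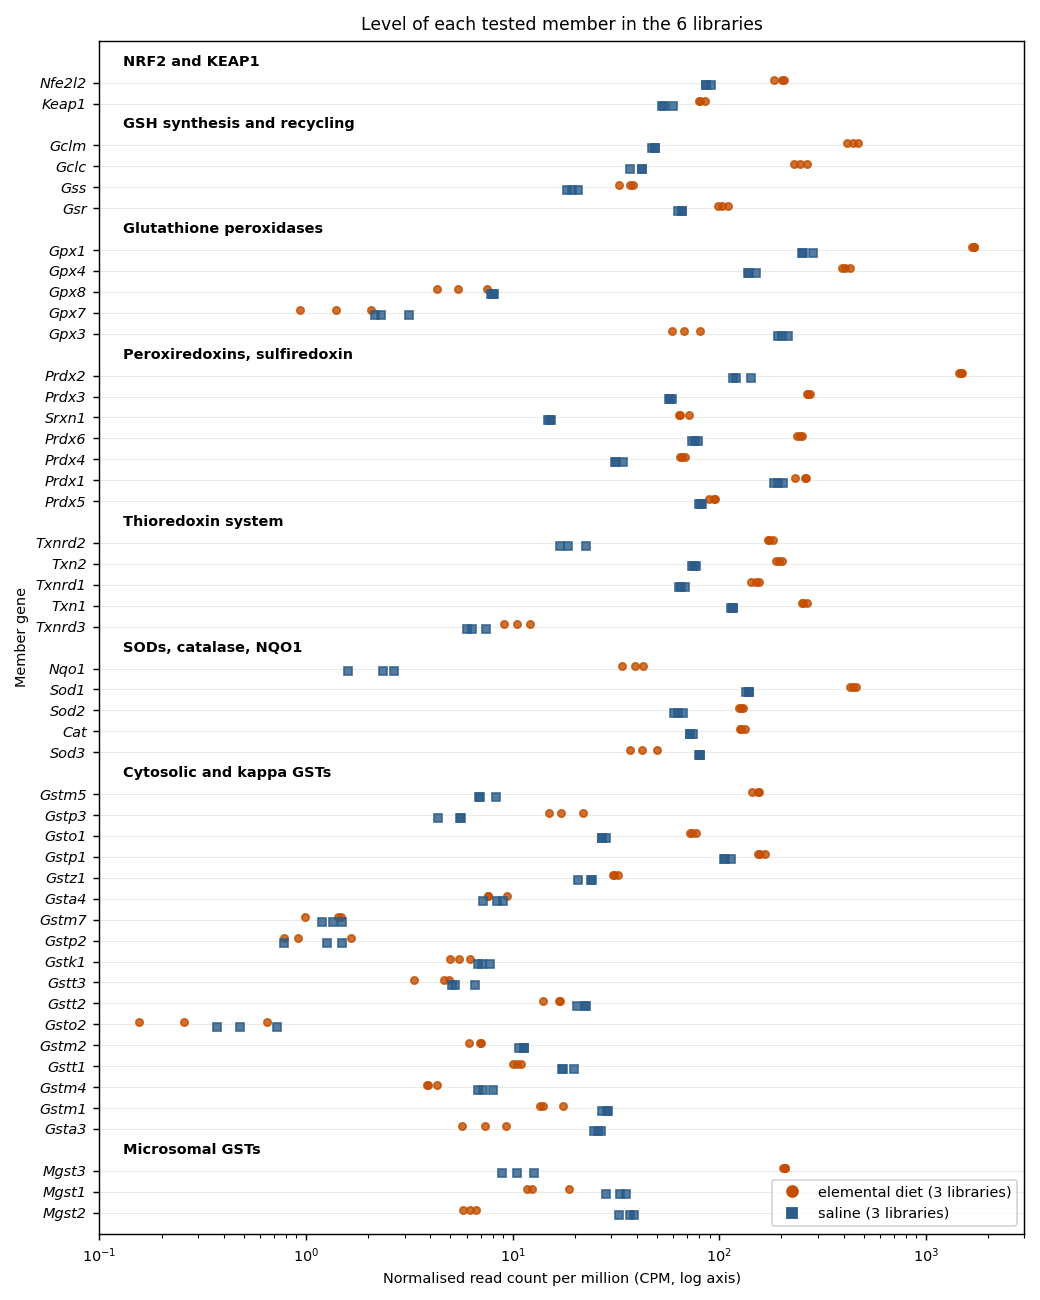
Normalised read count (CPM, log axis) of each of the 48 tested members in every library, by role, under elemental diet as circles and saline as squares. In Gpx1, Prdx2, Gclm, Gstm5, Mgst3 and Nqo1 the circles lie far to the right of the squares, while in Gpx3, Mgst1, Mgst2 and Gsta3 they lie to the left.

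On the length-scaled TPM values, which allow genes to be compared with each other, the members together took 9806, 9839 and 9643 TPM in elemental diet libraries 1 to 3 and 4143, 3903 and 3807 in the saline libraries. Every elemental diet library thus lay above every saline library, with a ratio of group means of 2.47. Few genes held much of the level. Gpx1 alone held 31.8% ± 0.282 (SD, n = 3) of the members' TPM under elemental diet and 16.2% ± 0.515 under saline. Prdx2 held 12.8% and 3.61%. With elemental diet the order of levels was led by Gpx1 at 3099.9 TPM, Prdx2 at 1253, Txn1 at 626 and Gpx4 at 610.2, and Txn1 and Gpx4 overlapped in range. With saline the leaders were Gpx1 at 640.2 TPM, Gstp1 at 475, Gpx3 at 387 and Txn1 at 359.5, where Gpx3 and Txn1 overlapped. Prdx2, in the second place under elemental diet, was in place 7 under saline.

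**Figure D2:**
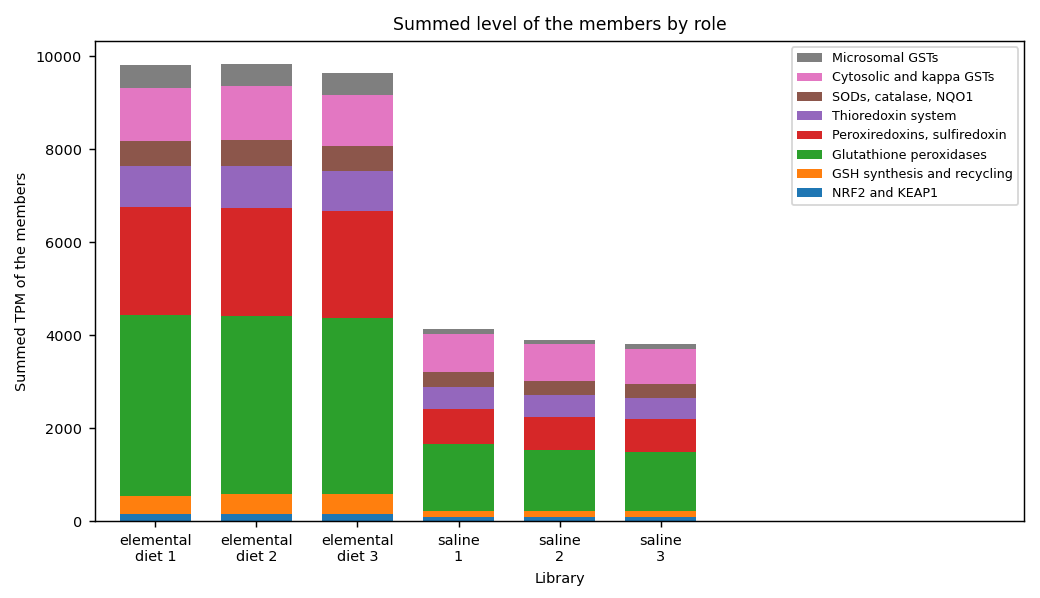
Summed TPM of the members in each of the 6 libraries, stacked by role. The elemental diet bars reach 9643 to 9839 TPM and the saline bars 3807 to 4143, and glutathione peroxidases are the tallest segment in every library.

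Nfe2l2, which encodes NRF2, stood at 185, 205 and 201 CPM in elemental diet libraries 1 to 3 and at 91.5, 86.7 and 86.5 in the saline libraries. All elemental diet libraries were above all saline libraries (log2 fold change 1.16, SE 0.054, adjusted p = 1.16e-10). Keap1, the adaptor that sends NRF2 to degradation, stood at 80.3, 85.5 and 80.4 CPM and 52.7, 53.9 and 59.7. It was higher too, by less (log2 fold change 0.57, SE 0.059, adjusted p = 7.66e-07), so that the share of Nfe2l2 in the summed TPM of the pair was 73.4% ± 0.688 under elemental diet and 63.0% ± 1.62 under saline (SD, n = 3). These are transcript levels, and NRF2 is controlled mainly as a protein.

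NRF2 acts through the antioxidant response element, so the promoter letters of the members that moved are shown here. RefSeq (GRCm38.p6) gave a promoter window of 300 bases, 250 before and 50 after the start, for 50 of the 57 members. The element's core, TGACNNNGC on either strand, lay in the windows of 10 of these 50 genes (20.0%), against 13.99% of all 27025 genes with a window. It was found in 7 of 27 genes that rose, in 2 of 11 that fell (Gsta3 and Mgst1) and in 1 of 4 that did not pass (Gstm7). The core overlaps the AP-1 site where the variable letters read TCA, as in Prdx1. The GATA factors, of which the erythroid GATA1 is a member, are named for the GATA sequence. The GATA motif AGATAA on either strand lay in 4 of 50 (Gsta3, Gstk1, Gstm7 and Keap1), 8.0% against 12.7% of all genes. A match is a description of letters and not a site, and no match says only that the letters are not in this window. Stretches of 80 bases from upstream of the start are given 5′ to 3′ on the gene's strand for 5 genes that rose and hold the core, for Gsta3, which fell and holds it, and for Mgst3 and Nqo1, among the largest rises, where these stretches hold none. Capitals mark the core, which in Gclm, Prdx1 and Sod1 reads on the opposite strand. The Nfe2l2 and Gstm5 stretches overlap exons of noncoding genes on the other strand (E030042O20Rik and 4933431E20Rik).
Gclm, chr3:122245397-122245476, plus strand: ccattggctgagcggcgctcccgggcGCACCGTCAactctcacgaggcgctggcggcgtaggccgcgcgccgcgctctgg
Prdx1, chr4:116685439-116685518, plus strand: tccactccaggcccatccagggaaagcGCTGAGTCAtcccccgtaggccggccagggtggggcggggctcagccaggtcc
Sod1, chr16:90220674-90220753, plus strand: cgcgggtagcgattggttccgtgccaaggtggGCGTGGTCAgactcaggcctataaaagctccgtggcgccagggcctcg
Nfe2l2, chr2:75704834-75704913, minus strand: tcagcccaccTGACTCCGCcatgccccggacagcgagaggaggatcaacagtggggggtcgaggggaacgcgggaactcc
Gstm5, chr3:107895741-107895820, plus strand: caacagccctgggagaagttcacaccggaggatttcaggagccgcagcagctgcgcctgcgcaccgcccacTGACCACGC
Gsta3, chr1:21240435-21240514, plus strand: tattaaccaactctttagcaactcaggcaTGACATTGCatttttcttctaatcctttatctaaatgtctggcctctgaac
Mgst3, chr1:167393852-167393931, minus strand: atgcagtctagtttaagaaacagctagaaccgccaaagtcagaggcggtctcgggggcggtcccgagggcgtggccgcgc
Nqo1, chr8:107403216-107403295, minus strand: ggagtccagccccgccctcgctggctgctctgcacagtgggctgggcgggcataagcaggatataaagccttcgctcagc

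The 7 rising genes with the core were Gclm, Gstm5, Nfe2l2, Prdx1, Sod1, Srxn1 and Txnrd1. Their log2 fold changes ran from 0.38 in Prdx1 to 4.35 in Gstm5. The members that rose without it ran from 0.20 in Prdx5 to 4.27 in Mgst3.

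All 4 genes of glutathione synthesis and recycling rose. Gclm, the modifier subunit of glutamate-cysteine ligase (chromosome 3, 122245557 to 122270732, plus strand), stood at 414, 442 and 469 CPM under elemental diet and 48.9, 49.0 and 47.5 under saline. The groups lay far apart, with a log2 fold change of 3.19 (SE 0.06, adjusted p = 1.21e-14). Of its reads 38.4% and 36.1% were unique to it, and with unique reads alone the log2 fold change was 3.24. Gclc, the catalytic subunit, stood at 231, 247 and 265 CPM and 37.2, 42.1 and 42.3 (log2 fold change 2.61, SE 0.068, adjusted p = 3.56e-13). The later steps moved less. Gsr, which reduces oxidised glutathione, stood at 99.1, 109.8 and 103 CPM against 66.1, 66.3 and 63.2 (log2 fold change 0.67, SE 0.053, adjusted p = 4.19e-08), and Gss at 36.1 ± 3.11 against 19.4 ± 1.16 CPM (SD, n = 3). Gss exons overlap those of Acss2 on the other strand, and 65.4% and 57.3% of its reads were unique. Whether the counting used strand was not stated in the labels or headers. In TPM, the order within this role turned over: Gsr was 50.7% of the summed level under saline and 21.7% under elemental diet, while Gclm went from 19.5% to 41.1%.

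Glutathione peroxidases split by member. Of 8 genes, 5 were tested, 2 rose and 3 fell, and Gpx2, Gpx5 and Gpx6 were at 0 or a few reads. Gpx1, the main cytosolic enzyme against hydrogen peroxide and a selenoprotein, stood at 1678, 1716 and 1706 CPM under elemental diet and 284, 255 and 252 under saline, with no overlap (log2 fold change 2.69, SE 0.054, adjusted p = 3.08e-14). Gpx4, the selenoprotein that reduces lipid peroxides in membranes, stood at 408, 429 and 391 CPM against 151, 139 and 138 (log2 fold change 1.52, SE 0.054, adjusted p = 6.83e-12). Gpx3, the secreted plasma enzyme, went the other way, at 80.6, 67.3 and 59.4 CPM under elemental diet and 216, 201 and 193 under saline (log2 fold change -1.56, SE 0.10, adjusted p = 6.26e-07). As a share of the role's TPM, Gpx3 was 29.043% ± 0.359 under saline and 2.58% ± 0.397 under elemental diet (SD, n = 3). Gpx7, an enzyme of the endoplasmic reticulum, was low throughout, at 1.40, 2.08 and 0.938 CPM and 2.17, 2.31 and 3.17 (log2 fold change -0.78, SE 0.30, adjusted p = 0.0270). Gpx8, also of the endoplasmic reticulum, stood at 5.75 ± 1.62 and 8.02 ± 0.116 CPM (SD, n = 3), and its adjusted p was 0.0261. Leaving out elemental diet library 3 took the adjusted p of Gpx7 and Gpx8 to 0.107 and 0.118. The Gpx7 call was also lost without elemental diet library 1 (0.0535) or saline library 3 (0.131). That of Gpx8 was also lost without elemental diet library 2 (0.0949) or saline library 1, 2 or 3 (0.0616, 0.0755 and 0.0797). Within the elemental diet group, library 1, which held fat cell transcripts, was the highest for Gpx3 and Gpx8, and without both libraries numbered 1 the log2 fold changes were -1.63 for Gpx3, -0.72 for Gpx8 and -0.84 for Gpx7.

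Peroxiredoxins are thiol peroxidases that need no metal or heme. All 7 tested genes of this role, sulfiredoxin included, were called higher, although Prdx5 turned lower with library totals only or upper quartile scaling. Prdx6b had 0 reads. Prdx2, a major protein of red cells, stood at 1443, 1483 and 1499 CPM under elemental diet and 142, 120.3 and 117 under saline (log2 fold change 3.54, SE 0.073, adjusted p = 2.30e-13). Its exons overlap those of Rnaseh2a and Junb on the other strand, and 97.2% and 96.8% of its reads were unique. Prdx3, the mitochondrial member, stood at 265, 269 and 276 CPM and 56.9, 58.1 and 59.2 (log2 fold change 2.22, SE 0.048, adjusted p = 5.76e-14). Both were higher in every elemental diet library than in any saline library. Prdx1, the most widely expressed cytosolic member, stood at 261, 263 and 233 CPM against 204, 185 and 192, a gap of less than 2-fold (log2 fold change 0.38, SE 0.058, adjusted p = 3.42e-05). That call was lost with library totals only, where its log2 fold change was 0.08 (adjusted p = 0.280), and under upper quartile scaling, where it was 0.11 (adjusted p = 0.105). In TPM Prdx1 was 215 and 215. Srxn1, the sulfiredoxin that repairs overoxidised peroxiredoxins, rose with log2 fold change 2.14, SE 0.066, adjusted p = 1.57e-12, from 15.1 ± 0.286 CPM under saline to 66.7 ± 4.09 under elemental diet (SD, n = 3). Prdx6 and Prdx4 rose by 1.69 and 1.03 on the log2 scale. Prdx5, found in mitochondria and peroxisomes, had the smallest difference, 0.20, which became -0.11 with library totals only and -0.072 under upper quartile scaling. On exon reads it was 0.097 (adjusted p = 0.0822), so that the call was lost. In TPM every elemental diet library was lower, at 117, 115 and 109, against 133, 131 and 127 under saline. Its exons overlap those of Trmt112 on the other strand, which had 7295 and 5694 reads and a log2 fold change of 0.64. With saline Prdx1 held the largest share of the role's TPM, 29.4%, and under elemental diet Prdx2 did, at 54.2%.

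The thioredoxin system rose in all 5 genes. Txn1, the cytosolic thioredoxin, stood at 255, 267 and 252 CPM under elemental diet and 117, 116 and 113 under saline (log2 fold change 1.16, SE 0.047, adjusted p = 2.62e-11). Txn2, its mitochondrial counterpart, stood at 195, 202 and 189 CPM and 75.8, 73.5 and 77.4 (log2 fold change 1.37, SE 0.049, adjusted p = 7.71e-12). Among the reductases, which are selenoproteins, the mitochondrial Txnrd2 moved furthest, at 172, 175 and 182 CPM and 22.7, 18.5 and 17.0 (log2 fold change 3.18, SE 0.09, adjusted p = 2.36e-11). The cytosolic Txnrd1 rose by 1.197 on the log2 scale and Txnrd3, prominent in testis, by 0.68, at 10.6 ± 1.54 against 6.60 ± 0.725 CPM (SD, n = 3). In TPM, Txnrd1 was the most abundant reductase under saline, at 28.7 against 10.8 for Txnrd2. With elemental diet the order was reversed, at 53.5 for Txnrd1 and 85.5 for Txnrd2.

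**Figure D3:**
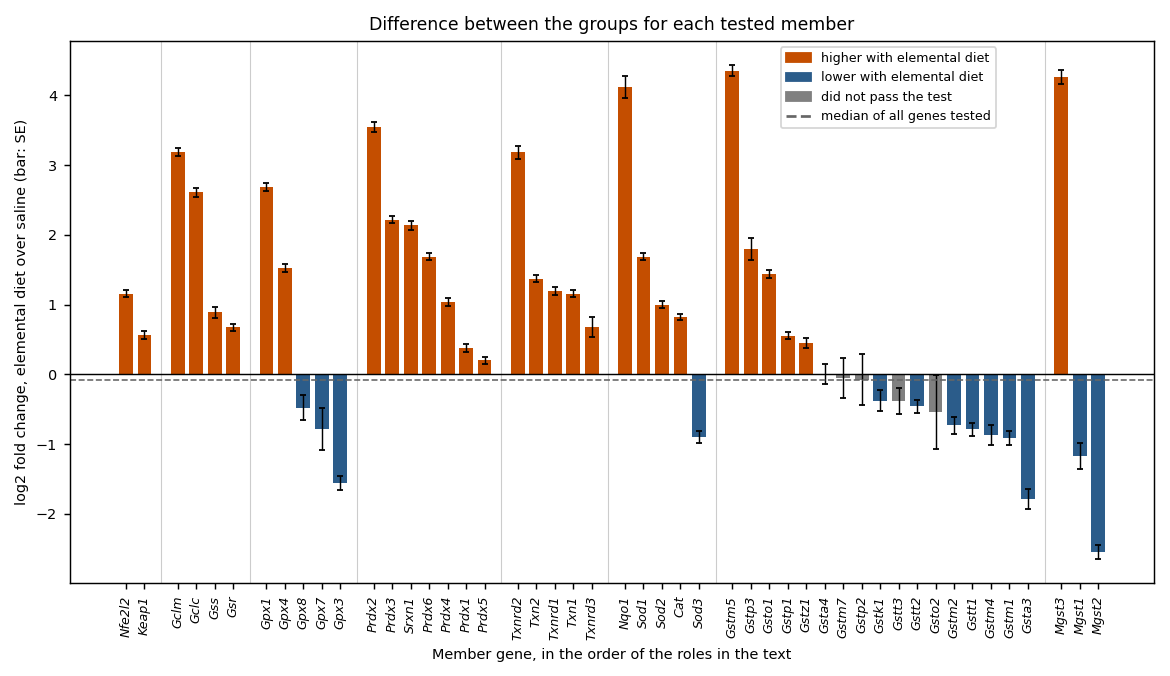
The log2 fold change of each of the 48 tested members (elemental diet over saline, error bars: SE), ordered by role, with the median of all genes tested, -0.08, as a dashed line. The thioredoxin, peroxiredoxin and synthesis genes are all above 0 (Prdx5 falls below 0 under upper quartile scaling and library totals), while the glutathione peroxidases and both groups of transferases hold members on either side.

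Of the superoxide dismutases, catalase and Nqo1, 4 rose and 1, Sod3, fell. Sod1, the cytosolic copper-zinc enzyme, stood at 443, 461 and 431 CPM under elemental diet and 139.7, 135 and 139.9 under saline (log2 fold change 1.69, SE 0.048, adjusted p = 6.37e-13). Cat, which encodes catalase, stood at 126, 128 and 134 CPM and 72.3, 74.8 and 72.2 (log2 fold change 0.82, SE 0.049, adjusted p = 1.60e-09). The mitochondrial manganese enzyme gene Sod2 stood at 127 ± 2.86 and 63.5 ± 2.96 CPM (SD, n = 3, log2 fold change 0.999). Nqo1, a quinone reductase and a standard readout of NRF2, stood at 33.9, 39.3 and 42.9 CPM against 2.37, 2.67 and 1.60 (log2 fold change 4.12, SE 0.16, adjusted p = 1.59e-10). It was a minor transcript in both groups, 62.0 and 3.85 TPM. Sod3, the extracellular enzyme, stood at 50.2, 42.2 and 37.0 CPM under elemental diet and 81.1, 79.6 and 80.7 under saline (log2 fold change -0.90, SE 0.09, adjusted p = 3.40e-06), the groups not overlapping. Without both libraries numbered 1 its log2 fold change was -1.01.

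Glutathione transferases join glutathione to electrophiles, and the cytosolic families went both ways. Of 22 genes, 17 were tested, 5 rose, 7 fell and 5 did not pass, with a median log2 fold change of -0.37. Gstp1, the pi-class enzyme and the most abundant transferase here, stood at 157, 166 and 155 CPM under elemental diet and 114, 106 and 106 under saline (log2 fold change 0.55, SE 0.051, adjusted p = 2.31e-07). Its value is uncertain where near-identical copies share reads: 66.8% and 67.1% of its reads were unique. Gstm5, a mu-class enzyme, stood at 145, 155 and 154 CPM against 8.29, 6.91 and 6.93. It was 20.5-fold higher (log2 fold change 4.35, SE 0.074, adjusted p = 8.10e-15), the largest rise among the tested members. An antisense gene, 4933431E20Rik, overlaps its exons and moved alike, with a log2 fold change of 4.01. It had 2249 reads in the elemental diet libraries, against 12429 for Gstm5. Gsto1, an omega-class enzyme, stood at 72.1, 77.4 and 74.0 CPM and 27.1, 28.2 and 27.1 (log2 fold change 1.44, SE 0.056, adjusted p = 1.83e-11). Gstp3, a further pi-class gene, stood at 15.0, 22.0 and 17.1 CPM and 4.36, 5.62 and 5.57 (log2 fold change 1.80, SE 0.16, adjusted p = 1.95e-07). Gstz1, an enzyme of tyrosine breakdown, was called higher by 0.45, but with library totals only its log2 fold change was 0.14 (adjusted p = 0.123) and under upper quartile scaling 0.18 (adjusted p = 0.0562). Gstz1 exons overlap those of Pomt2 on the other strand, which had 1590 and 1471 reads and a log2 fold change of 0.41. Intron reads made up 19.4% and 40.4% of the Gstz1 reads, and on exon reads alone its log2 fold change was 0.77.

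Falls were found in the alpha, mu, theta and kappa classes. Gsta3 stood at 9.34, 7.35 and 5.67 CPM under elemental diet and 26.8, 25.8 and 24.7 under saline (log2 fold change -1.79, SE 0.14, adjusted p = 1.67e-07). Of the Gsta3 reads 56.4% and 57.2% were unique. Gstm1 stood at 17.5, 13.6 and 13.996 CPM and 28.7, 29.1 and 27.0 (log2 fold change -0.91, SE 0.10, adjusted p = 1.04e-06). In both genes elemental diet library 1 was the highest of its group, and without both libraries numbered 1 the log2 fold change of Gsta3 was -1.94. The log2 fold changes were -0.73 for Gstm2, -0.87 for Gstm4, -0.79 for Gstt1, -0.46 for Gstt2 and -0.37 for Gstk1. The call for Gstk1, at 5.58 ± 0.606 against 7.23 ± 0.489 CPM (SD, n = 3, adjusted p = 0.0300), was lost with DESeq2 (adjusted p = 0.0757), with no filter on low counts (0.0516), and without elemental diet library 2 or 3 (0.0776 and 0.109) or saline library 1 or 3 (0.106 and 0.0668). Gsta4, Gstm7, Gstp2, Gsto2 and Gstt3 did not pass, with log2 fold changes of 0.0064, -0.056, -0.08, -0.54 and -0.38 and SE of 0.14, 0.28, 0.37, 0.53 and 0.19. Gstt3 passed under 5 alternatives, all lower, with log2 fold changes from -0.69 to -0.47. Gsta1, Gsta2, Gstm3, Gstm6 and Gstt4 had too few reads for a test.

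Neighbours in a gene cluster did not move as 1 block. The mu-class genes lie side by side on chromosome 3, from Gstm5 (107895821 to 107898686, plus strand) over Gstm7, Gstm6, Gstm3, Gstm2 and Gstm1 to Gstm4 (108040408 to 108044894, minus strand). Gstm5 lies at the edge of this cluster, is on the plus strand, and rose. Gstm1, Gstm2 and Gstm4, on the minus strand, fell, and Gstm7 stood at 1.30 ± 0.270 against 1.35 ± 0.151 CPM (SD, n = 3). Of the Gstm5 reads 99.5% and 99.6% were unique, and with unique reads its log2 fold change was 4.32. The pi-class cluster on chromosome 19 holds Gstp1 (4035407 to 4037921), Gstp2 and Gstp3 (4057477 to 4059446). Gstp1 and Gstp3 rose, and Gstp2, with only 34.8% and 41.2% of its few reads unique, stood at 1.12 ± 0.469 and 1.18 ± 0.367 CPM. In the theta cluster on chromosome 10 Gstt1 and Gstt2 fell.

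Microsomal transferases, membrane proteins unrelated in sequence to the cytosolic ones, showed the widest spread of any role. Mgst3, which uses glutathione to reduce lipid peroxides, stood at 203, 208 and 208 CPM under elemental diet and 12.7, 8.86 and 10.5 under saline, 19.3-fold higher (log2 fold change 4.27, SE 0.10, adjusted p = 6.05e-12). Mgst1, the abundant liver form, stood at 18.9, 11.7 and 12.4 CPM and 35.2, 33.2 and 28.3 (log2 fold change -1.17, SE 0.19, adjusted p = 6.67e-04). Mgst2, also a leukotriene C4 synthase, stood at 6.69, 5.75 and 6.22 CPM against 32.9, 37.0 and 38.8 (log2 fold change -2.54, SE 0.10, adjusted p = 1.31e-11), the largest fall among the tested members. Intron reads made up 42.5% and 54.8% of the Mgst2 reads, and on exon reads alone its log2 fold change was -2.31. The make-up of this role turned from 52.8% Mgst1 and 31.8% Mgst3 of the TPM under saline to 95.9% Mgst3 under elemental diet.

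The 4 members that were more than 10-fold higher were Gstm5, Mgst3, Nqo1 and Prdx2. No tested member reached the median log2 fold change of the 13 erythroid genes, 4.88, or of the 12 proliferation genes, 4.85. The median of the 8 B cell genes was -2.84 and that of the 12 monocyte and macrophage genes -1.09, and the largest member fall was -2.54. Under 70% of reads were unique under saline in 10 tested members, which besides those named above include Keap1 (62.9%), Gpx8 (41.9%), Gsto1 (61.8%), Gsto2 (58.5%) and Gstt3 (21.5%), and their values are uncertain where copies share reads. Replicates were close: the median coefficient of variation of the tested members was 6.13% under elemental diet and 5.53% under saline. Reads in introns were a smaller share of the members' reads under elemental diet, 3.66% ± 0.110, than under saline, 7.55% ± 0.022 (SD, n = 3). The exact two-sided test by permutation gave p = 0.1, which is the least that 3 against 3 libraries allow. Over all genes the shares were 8.64% and 13.998%. Unique reads were 94.0% ± 0.104 and 93.8% ± 0.0059 of the members' reads (exact permutation p = 0.1, two-sided).

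Genes that feed the members with NADPH, selenium and glutathione precursors were counted in lists of linked pathways, each given whole. Of 16 tested NADPH supply genes 12 were higher and 1 lower, with a median log2 fold change of 0.82 against -0.08 for all genes tested. Of all genes tested, 38.0% were higher and 40.2% lower. Nadk2, the mitochondrial NAD kinase, stood at 157 ± 6.12 CPM under elemental diet and 22.5 ± 0.908 under saline (SD, n = 3), Rpia, of the pentose phosphate pathway, at 229 ± 4.17 and 49.3 ± 0.707, and Mthfd1, of folate metabolism, at 333 ± 19.9 and 73.1 ± 1.31. The lower one was Me3, a mitochondrial malic enzyme, named after its value was seen. Of 9 tested selenoprotein synthesis genes 5 were higher and 2 lower (median 0.38). Sephs2, which makes the selenium donor, stood at 117 ± 1.21 against 31.5 ± 1.47 CPM, and Scly and Sephs1 were 2.87-fold and 2.38-fold higher. Secisbp2l and Pstk were the lower ones, named after their values were seen.

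Glutathione transport and turnover had 11 genes higher and 8 lower of 20 tested (median 0.50). All genes tested went both ways too, 38.0% higher and 40.2% lower, which is the background for each list in this paragraph. Chac2, which breaks down glutathione in the cytosol, rose with a log2 fold change of 3.38, but only 13.8% and 11.8% of its reads were unique. Glo1 and Hagh, the glyoxalases that use glutathione to clear methylglyoxal, were 4.25-fold and 4.74-fold higher. Of 22 glutaredoxin and thioredoxin-linked genes 12 were higher and 9 lower (median 0.30). Glrx5, the mitochondrial glutaredoxin of iron-sulfur cluster assembly, stood at 428 ± 22.0 against 56.7 ± 5.72 CPM, Txnl1 was 3.31-fold higher, and Sesn3, a sestrin, fell by 2.25 on the log2 scale. Among 25 partners, regulators and other targets of NRF2, 13 were higher and 12 lower (median 0.25). Blvrb, a biliverdin reductase of red cells, stood at 638 ± 11.7 against 63.8 ± 6.97 CPM and Fth1, ferritin heavy chain, at 2717 ± 7.42 against 1057 ± 35.3, while Bach2, a repressor that lymphocytes use, stood at 17.4 ± 0.340 against 106 ± 7.02.

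Most tested genes of the NADPH oxidases, which make superoxide, and of their subunits were lower, while most tested members were higher. Of 11 tested NADPH oxidase genes 10 were lower and 1, Rac1, higher, against 40.2% lower and 38.0% higher of all genes tested. Their median log2 fold change was -1.37. Cybb, the catalytic subunit of the phagocyte oxidase, stood at 59.0 ± 2.02 CPM under elemental diet and 263 ± 5.06 under saline, Ncf4 at 22.2 ± 0.141 and 104 ± 4.04, and Ncf1 at 42.2 ± 2.12 and 147 ± 1.22 (SD, n = 3). Of the Ncf1 reads 41.1% and 40.1% were unique. Neutrophils, macrophages and B cells all express this oxidase. Neutrophil markers moved the other way from it, with 10 of 10 higher and a median log2 fold change of 4.71, while 10 of 12 monocyte and macrophage markers and 8 of 8 B cell markers were lower. The part of these cells in the difference was not tested.

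**Figure D4:**
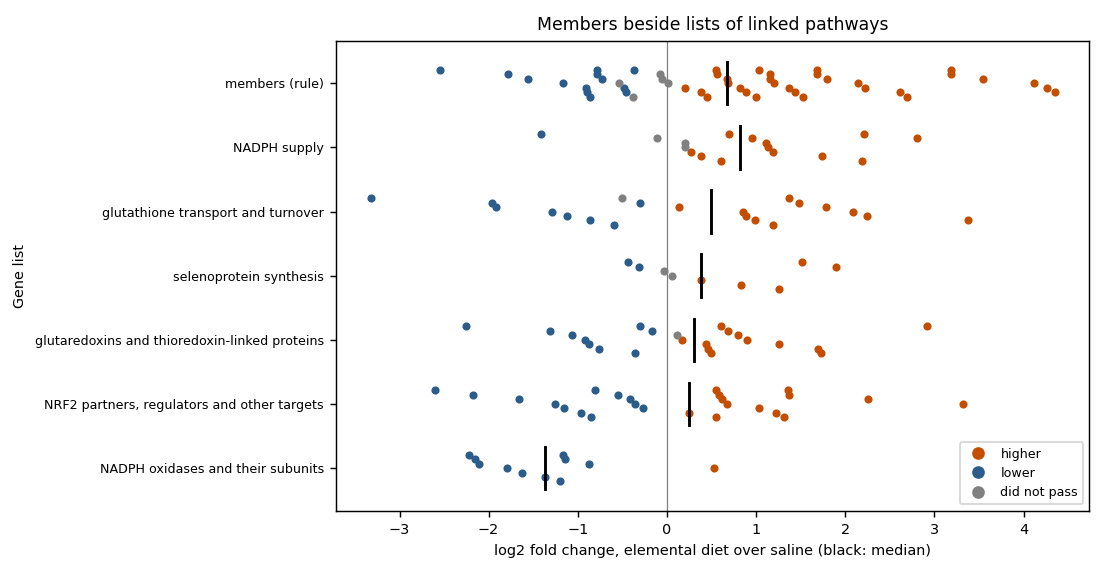
The log2 fold change (elemental diet over saline) of each tested gene in the members and in the lists of linked pathways, with the median of each as a black bar. The NADPH supply list lies mostly above 0, with a median of 0.82, and the NADPH oxidase list mostly below, with a median of -1.37.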

How the data were processed

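RNA was poly(A)-selected and read as 75 bp pairs, per the labels' protocols, which name fibroblasts or keratinocytes as the RNA source where the tissue label says salivary gland. The authors deposited, per the file headers, counts of reads for each gene (total and unique, exon and intron) and a TPM value per gene that the authors scaled to exon length and library. Aligner, counter and use of strand: not given in the sources used here. Builds GRCm38 and GRCh37 appear in the submitters' processing notes, and coordinates are those of the files, 53 of 57 members matching GENCODE M21 (GRCm38).

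Total gene reads were tested on all 41325 rows with edgeR 4.0.16 in R 4.3.3 (robust glmQLFit, glmQLFTest, two-sided, TMM scaling, filterByExpr, Benjamini-Hochberg adjustment over 18303 genes, threshold 0.05). CPM values carry the TMM factors, except the level that a count of 0 could hide. SE was taken as the size of the log2 fold change over the root of F. The test was checked on simulated counts in which few genes changed, in random directions. With 78.1% of all genes called here, such counts cannot check the scaling. In each pair of libraries within a group, the median squared difference over genes was at least 2.83 times that from sampling noise. Alternatives were DESeq2 1.42.0, other scalings, filters and read classes, a replicate block and fits without each library. Members named in full were, in each role, the 3 of highest mean TPM and the 2 largest rises and falls among called members with a mean of at least 1 CPM; of each linked list, the 3 of smallest p. Members and lists were chosen with earlier results of these data known. Of the list symbols, Ahsp, Nnt and Dpep2 were not analysed here.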

Additional observations from a re-analysis of the deposited data

How the results depend on the processing

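Of 43 called members, 32 kept direction and call in all 18 alternatives, 3 of which were chosen after seeing the data (the fold of 1.5, the fit without erythroid and immunoglobulin rows, and that without both libraries numbered 1). The replicate block gave 30 members higher and 13 lower, as without it. Same-numbered libraries of the groups had correlations of deviations of 0.117, -0.00799 and 0.0578 for numbers 1 to 3. Those of differently numbered libraries ran from -0.104 to 0.0597, so the largest was that of the libraries numbered 1. Whether the numbers pair libraries cannot be decided from these correlations. Leaving out 1 library at a time gave 30 higher each time and 10 to 13 lower. Without composition scaling the median of all genes moved from -0.08 to -0.39 (-0.35 with upper quartile) and that of the members from 0.68 to 0.37 (0.40), a distance of 0.76 in each; members then split 27 higher and 14 lower with either, and all genes 5407 and 9265 (5601 and 9051 with upper quartile) in place of 6951 and 7352. Against a fold of 1.5, 8 members were lower, and 4432 and 4862 genes were higher and lower; the linked lists then had 8 higher and 6 lower (NRF2 partners), 6 higher (glutaredoxins), 0 higher (NADPH oxidases) and 0 lower (selenoprotein synthesis). NADPH supply had 2 lower with upper quartile, library totals, the 1 CPM filter, and unique reads, and 1 to 2 in fits without 1 library each. Selenoprotein synthesis had 4 lower with upper quartile or totals and 1 with unique or exon reads. Reversed were Prdx5 (-0.072 with upper quartile, -0.11 with totals) and uncalled members: Gsta4 (-0.26 with upper quartile, -0.30 with totals, -0.018 with the 1 CPM filter, -0.028 with unique reads, -0.085 with exon reads, -0.086 without both libraries numbered 1, -0.0047 without erythroid and immunoglobulin rows), Gstm7 (0.11 without both libraries numbered 1), and, in fits without 1 library, Gsta4 (-0.092 to 0.075), Gstm7 (-0.14 to 0.12) and Gstp2 (-0.46 to 0.13). The cause was not tested. Depth limits the 9 untested members, none with more than 17 reads over the 6 libraries.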

Other observations

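Some standard NRF2 targets outside the enzyme families were lower under elemental diet, and were picked out after their values were seen. The whole list of 25 NRF2 partners, regulators and other targets went both ways, with 13 higher and 12 lower. Slc7a11, the cystine transporter that supplies glutathione synthesis, is not in that list but in that of glutathione transport and turnover. The latter had 11 higher and 8 lower of 20 tested. Slc7a11 stood at 6.50 ± 0.780 CPM under elemental diet and 25.4 ± 2.13 under saline (SD, n = 3), while both subunits of glutamate-cysteine ligase rose. Hmox1, heme oxygenase, stood at 104 ± 6.22 against 248 ± 21.6 CPM, and the biliverdin reductases Blvra and Blvrb were 2.33-fold and 9.99-fold higher. Ephx1, Osgin1 and Maff, a partner of NRF2, were lower as well, with log2 fold changes of -2.18, -1.15 and -1.67. Txnip, the inhibitor of thioredoxin and not listed among the NRF2 targets, stood at 140.3 ± 6.08 against 348 ± 9.16 CPM.

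The genes at the start of glutathione breakdown outside the cell were also picked out after their values were seen. Their list, glutathione transport and turnover, went both ways, with 11 higher and 8 lower of 20 tested. Of all genes tested, 38.0% were higher and 40.2% lower. Ggt1, the gamma-glutamyl transferase, stood at 0.536 ± 0.0226 CPM under elemental diet and 5.40 ± 0.894 under saline. Ggt5 and Ggt7 were lower too, at 11.8 ± 0.535 against 25.8 ± 1.99 and 0.754 ± 0.177 against 2.86 ± 0.0656 CPM.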
